A study of Mus musculus with 91 samples.

Results

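The genes described here are 9 members of the Nodal branch of TGF-beta signaling: the ligand genes Nodal, Gdf1, Gdf3 and Gdf11, the inhibitor genes Lefty1 and Lefty2, the co-receptor genes Tdgf1 and Cfc1, and Foxh1, the gene of a transcription factor that acts with the receptor-activated Smads. They were chosen by name, and all 9 were found among the 53379 genes of the count table. The cells came from the caudal lateral epiblast of wild type MF1 mouse embryos of the early head fold stage (around E8.0, embryonic day 8.0). MF1 is an outbred strain, and the tissue, which flanks the node and the front of the primitive streak, was dissected by hand. Most of the paraxial mesoderm below it was taken away before pooling. The pieces of all embryos were pooled, the cells were sorted into single wells, and full-length cDNA of 91 cells was sequenced by Smart-seq2. No embryo is named for any cell, so the 91 cells stand for 1 pool without replicates. No test, p-value or standard error is therefore given. An SD describes the spread between cells, and the 95% Clopper-Pearson interval (CI) of a share of cells covers counting error only. For a count of 0, the limit of 3 cells over the number of cells is given, with the upper bound of the CI, which is wider.

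Cells with a higher value of Nkx1-2, a homeobox gene of the caudal epiblast, than of Aldh1a2, the gene of a retinoic acid synthesizing enzyme of paraxial mesoderm, were called epiblast-like (43 cells), and the others mesoderm-like (48 cells). Values are counts per 1000000 counts of the cell (CPM). Both classes came from the same embryos, dissection and sort, and differ only by these reads.

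Nodal is a secreted ligand of gastrulation. It binds activin receptors of type I and type II together with a membrane-anchored co-receptor, Cripto (Tdgf1) or Cryptic (Cfc1), and the receptors activate Smad2 and Smad3, which enter the nucleus with Smad4 and bind target genes with partners such as Foxh1. Lefty proteins bind Nodal or its co-receptor and block it, and their genes are themselves targets of the pathway, which makes a negative feedback loop. Gdf1 and Gdf3 are ligands that use the same co-receptors, whereas Gdf11 signals through Acvr2b and Tgfbr1 without them and is known for its role in patterning of the trunk and tail. Around the head fold stage Nodal is known to be transcribed near the node, and later in left lateral plate mesoderm with Lefty2.

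Some of these genes have near-identical copies or overlapping neighbors, which bears on what a read can show. Reads of 75 bases were sequenced from 1 end. Of the 1682 different 75-base words in the Lefty1 transcripts, 197 (11.7%) also occur in Lefty2 transcripts, and the coding sequences, 1104 bases long, are 91.8% identical. A read from most of either gene can be assigned to it, as the coding stretch of 75 bases with the most differences shows. It lies in the first exon of both genes (GRCm38, plus strand: Lefty1 at chr1:180935160-180935234, Lefty2 at chr1:180893234-180893308), and capitals mark the 23 bases that differ.
Lefty1: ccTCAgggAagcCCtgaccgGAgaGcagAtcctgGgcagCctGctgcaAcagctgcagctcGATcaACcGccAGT
Lefty2: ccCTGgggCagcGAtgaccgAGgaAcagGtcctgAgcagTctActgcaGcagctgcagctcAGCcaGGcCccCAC
The co-receptor gene Tdgf1 has a processed copy without introns, Tdgf1-ps1, that is 98.6% identical over 513 bases. Even in the coding stretch of 75 bases that sets them apart most (Tdgf1, minus strand, exon 6, chr9:110940745-110940819; Tdgf1-ps1, plus strand, chr16:3730910-3730984), only 3 bases differ, in capitals.
Tdgf1: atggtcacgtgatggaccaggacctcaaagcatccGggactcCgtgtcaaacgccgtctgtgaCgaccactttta
Tdgf1-ps1: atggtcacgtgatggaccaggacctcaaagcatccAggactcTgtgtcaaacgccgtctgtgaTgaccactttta
Sequences are those of GENCODE M21. Of the 2690 words of Tdgf1, 161 (5.99%) are shared with this copy. Gdf1 lies wholly inside exons of Cers1, a ceramide synthase gene read on the same strand, and all 1275 of its words are shared, so that its reads cannot be told from those of Cers1. Cfc1 overlaps Prss40 on the opposite strand, with 216 of 966 words (22.4%) in common. Nodal, Gdf3, Gdf11 and Foxh1 share none with another annotated transcript.

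Total counts per cell ran from 1260653 to 3927737 with a median of 2450073 in epiblast-like cells, and from 709866 to 4439571 with a median of 2589802 in mesoderm-like cells. The classes were set beside lists of marker genes. These lists were chosen with earlier results of these data known, so they give no independent check of the class names. Compared with the mesoderm-like class, the epiblast-like class had 7 of 8 epiblast markers higher by 2-fold or more, and all 8 mesoderm markers lower by 2-fold or more. Markers of endoderm, node or notochord, blood, lateral mesoderm, neural tissue and germ cells were each at a median summed level of 0 CPM in both classes, with no read of the node and notochord genes Noto, Shh and Chrd, nor of the endoderm gene Sox17, in any cell. Surface ectoderm markers had a median sum of 1.99 CPM in epiblast-like cells, with Grhl2 read in 20 and Dlx5 in 14 of the 43, and of 0 in mesoderm-like cells, with Grhl2 read in 11 and Dlx5 in 2 of the 48. Of these lists, Nog, Sox1, Olig3 and Dlx5 were higher in the epiblast-like class by the 2-fold rule, and Foxf1 and Bmp4 in the mesoderm-like class. Sox1 was read in epiblast-like cells only and Foxf1 in mesoderm-like cells only. Cell B10 was nearly undecided, with 1913 reads of Nkx1-2 and 1587 of Aldh1a2. It was counted as epiblast-like. Genes that define other organs were read in 2.48% of the pairs of such a gene and an epiblast-like cell and in 0.417% of those with a mesoderm-like cell, in the main with 5 or more reads: 1 to 4 reads made up 0.31% and 0.139% of the pairs. The epiblast-like share leans on 1 of the 15 genes, read in 10 epiblast-like cells and 1 mesoderm-like cell, and 11 of the 15 had no read.

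Reads of 7 of the 9 genes were found. A call needed reads in at least 3 cells and a 2-fold difference or more between means to which 1 CPM had been added, and 4 genes could be called (Foxh1, Gdf11, Lefty2 and Tdgf1). Folds and log2 ratios below are of these means with 1 CPM added, epiblast-like over mesoderm-like unless stated. Of these, 1 (Tdgf1) was higher in the epiblast-like class and 2 (Foxh1 and Lefty2) were higher in the mesoderm-like class, while Gdf11 stayed below a 2-fold difference. Lefty2 reached the needed 3 cells through mesoderm-like cells alone, so its call could only fall on that side. Over all 18054 genes that could be called, 8.18% were higher in epiblast-like and 9.55% in mesoderm-like cells. Nodal, Lefty1 and Cfc1 were read in a single cell each, and Gdf1 and Gdf3 in none. Of the 819 pairs of a member and a cell, 154 held a read, and only 12 held 1 to 4 reads, so that most detections rest on 5 or more reads.

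**Figure D1:**
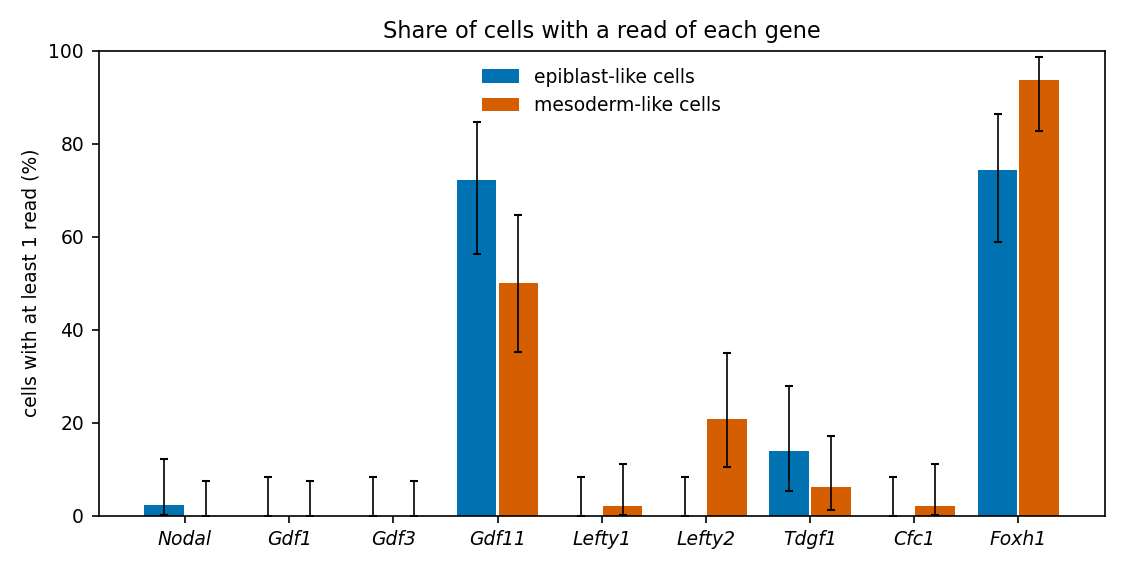
Share of cells with at least 1 read of each gene, in percent, in 43 epiblast-like (blue) and 48 mesoderm-like cells (orange), with 95% Clopper-Pearson intervals. Gdf11 and Foxh1 were read in at least 50% of the cells of either class, while the other 7 genes were read in at most 20.8% of the cells of a class.

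Nodal (chromosome 10, 61417972 to 61425338, plus strand) was read in 1 epiblast-like cell, C10, with 343 reads (114 CPM), and in no other cell. This is a share of 2.33% (CI 0.0589 to 12.3%) of epiblast-like cells, and 0 of 48 mesoderm-like cells, which allows a share of up to 6.25% (CI bound 7.40%). With 1 positive cell a mean says nothing of the class, and no fold is given. C10 was not a shallow cell. Its total of 3018574 counts was the 21st of the 91, and it held 2770 reads of Nkx1-2 and none of Aldh1a2, next to 2263 of T, the Brachyury gene of the primitive streak, 271 of Tbx6 and 133 of Msgn1, both genes of presomitic mesoderm. It also had reads of Acvr2b (454), Tgfbr1 (78), Smad2 (894), Smad4 (503) and Foxh1 (157), 1 read each of Tdgf1 and Gdf11, and none of Lefty1, Lefty2, Cfc1 or Cer1. When the classes were made from 8 epiblast and 8 mesoderm markers, C10 was 1 of 3 cells that passed to the mesoderm-like side. With 2 k-means clusters it stayed epiblast-like, and it had 763 reads of Cdh1, the E-cadherin gene of epithelia. Of the mesoderm markers, it had no read of the receptor gene Pdgfra, but 330 reads of Fn1 and 555 of Rspo3. Its Rspo3 level (184 CPM) was the highest of the epiblast-like class.

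The 2 Gdf genes closest to Nodal in their use of co-receptors were not read. Gdf3 (chromosome 6, 122605403 to 122610087, minus strand) had 0 reads in 91 cells, which allows a share of up to 3.30% (CI bound 3.97%). Gdf1 (chromosome 8, 70329817 to 70331587, plus strand) also had 0 reads in 91 cells, but because every stretch of it is also annotated as Cers1, and how reads that fall in 2 genes were treated is not stated, this 0 does not bound its transcription. Cers1 itself had 71 reads in 3 epiblast-like cells and none in mesoderm-like cells.

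Gdf11 (chromosome 10, 128882295 to 128891718, minus strand) was the only ligand gene of the set read in more than 1 cell, and the same holds when the myostatin gene Mstn and the activin subunit genes Inhba and Inhbb, each without a read in 91 cells, are added to make 7 ligand genes. Gdf11 was read in 31 of 43 epiblast-like cells (72.1%, CI 56.3 to 84.7%) and 24 of 48 mesoderm-like cells (50%, CI 35.2 to 64.8%). The intervals overlap. Its level in epiblast-like cells ran from 0 to 141 CPM with a median of 20.8, and in mesoderm-like cells from 0 to 255 CPM with a median of 0.199. The epiblast-like mean was 34.3 ± 41.2 CPM (SD, n = 43) and the mesoderm-like mean 32.96 ± 51.9 CPM (SD, n = 48), a log2 ratio of 0.05. The classes thus had nearly the same mean, spread over more cells on the epiblast-like side: among cells with reads alone it was 47.5 ± 41.6 CPM for the epiblast-like and 65.9 ± 56.9 CPM for the mesoderm-like class. The mesoderm-like mean leans on cell B12 (1094 reads, 16.1% of the summed CPM of the class), and no cell held more than 9.56% of the epiblast-like sum. Cells with 1 to 4 Gdf11 reads were few, 5 epiblast-like and 2 mesoderm-like. At 5 or more reads 26 epiblast-like and 22 mesoderm-like cells were left. Depth moved little with detection. The median total was 2450073 counts in the 31 epiblast-like cells with Gdf11 reads and 2352868 in the 12 without, and it was 2589802 in the 24 mesoderm-like cells with them and 2561824 in the 24 without.

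**Figure D2:**
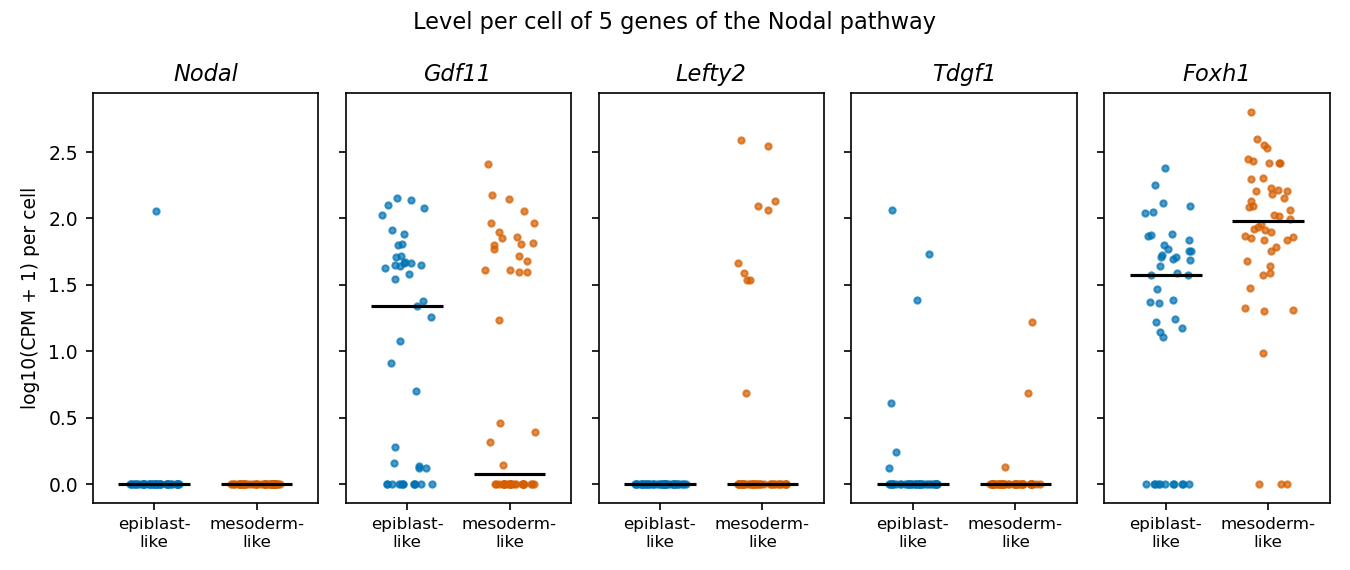
Level of 5 genes in each cell as log10(CPM + 1), for 43 epiblast-like (blue, left in each panel) and 48 mesoderm-like cells (orange, right); horizontal bars are medians and points are spread sideways for clarity. Nodal is above 0 in 1 cell and Lefty2 in 10 mesoderm-like cells, while the highest Foxh1 level is 239.9 CPM among epiblast-like and 631 CPM among mesoderm-like cells.

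Of the Lefty genes, Lefty2 was read in a part of the mesoderm-like cells and Lefty1 in almost none. Lefty2 (chromosome 1, 180893108 to 180899103, plus strand) was read in none of the 43 epiblast-like cells, which allows a share of up to 6.98% (CI bound 8.22%), and in 10 of 48 mesoderm-like cells (20.8%, CI 10.5 to 34.99%). In these 10 cells the level was 3.86, 33.3, 33.5, 38.03, 44.996, 115, 124, 136, 353 and 386 CPM, with a median of 80.001 CPM. The cells fall on a wide range, from 10 reads in A7 to 1444 reads in F1, and F1 alone held 30.5% of the summed CPM. Over all mesoderm-like cells the mean was 26.4 ± 78.9 CPM (SD, n = 48). Against 3 reads in every epiblast-like cell, a floor of 1.27 CPM on average, the epiblast-like level was at least 20.8-fold lower. Lefty1 (chromosome 1, 180935022 to 180938400, plus strand), which lies next to Lefty2 in the same orientation, had 1 read in 1 mesoderm-like cell, F1 (0.267 CPM), and none in epiblast-like cells. F1 is the cell with the most Lefty2 reads. Lefty1 reads were thus at the level of a single read per gene and cell, and whether this read came from Lefty2 was not tested.

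Mesoderm-like cells with and without Lefty2 reads were set side by side. All 10 with reads also had reads of Tbx6 and Msgn1, at means of 374 ± 322 and 164 ± 113 CPM, against 312 ± 189 and 151 ± 93.3 CPM in the 38 without. By both markers the Lefty2 cells overlapped the rest of their class, D4 alone having only 1 read of Msgn1. Foxh1 averaged 194 ± 125 CPM in the 10 cells with Lefty2 reads and 116 ± 119 CPM in the 38 without, and the ranges overlap (36.3 to 397 and 0 to 631 CPM). Lhx1, a LIM homeobox gene of the early mesoderm, was read in 2 of the 10 and 23 of the 38 cells. Acvr2b averaged 131 ± 62.8 CPM with Lefty2 reads and 219 ± 129 CPM without. Of 5 markers of lateral mesoderm, Hand2 and Tbx20 were read in no mesoderm-like cell and Hand1 in none of the 10 cells with Lefty2 reads and 1 of the 38 without. Foxf1 was read in 2 of the 10 and 8 of the 38. Bmp4, which encodes a ligand of lateral and extraembryonic mesoderm and is named after its values were seen, was read in 4 of the 10 (11.8 ± 25.1 CPM) and 3 of the 38 (1.62 ± 6.47 CPM). The median total was 2886043 counts in the cells with Lefty2 reads and 2510524 in those without, and the part of depth or of lateral markers in these differences was not tested.

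Tdgf1 (chromosome 9, 110939603 to 110946158, minus strand) was read in 6 of 43 epiblast-like cells (13.95%, CI 5.30 to 27.9%) and 3 of 48 mesoderm-like cells (6.25%, CI 1.31 to 17.2%). The 6 epiblast-like cells had 0.331, 0.75, 3.09, 23.2, 53.3 and 114 CPM, and the 3 mesoderm-like cells had 0.354, 3.82 and 15.5 CPM. In each class most of the sum comes from a single cell, 58.6% from B10 in epiblast-like cells and 78.8% from D4 in mesoderm-like cells. The epiblast-like mean was 4.53 ± 19.3 CPM (SD, n = 43) and the mesoderm-like mean 0.411 ± 2.30 CPM (SD, n = 48), a log2 ratio of 1.97 that passed the 2-fold rule. This call depends on the class of B10, the cell with nearly equal Nkx1-2 and Aldh1a2 reads. Without it the log2 ratio was 1.05, with the highest cell of each class left out it was 1.42, and when B10 passed to the mesoderm-like side it turned round, to -0.27 with classes from the marker lists and to -0.35 with classes from 2 k-means clusters. Reads of Tdgf1-ps1 were seen in 2 cells only, B10 (8 reads) and C5 (5 reads), the 2 cells with the highest Tdgf1 CPM. How the reads of the shared stretches were divided was not tested.

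The other co-receptor, Cfc1 (chromosome 1, 34535648 to 34544313, plus strand), had 1 read in 91 cells, in the mesoderm-like cell B12 (0.233 CPM), and its antisense neighbor Prss40 had none. B12 is also the cell with the most Gdf11 reads. A co-receptor gene with at least 5 reads was thus found in 4 epiblast-like and 2 mesoderm-like cells, all through Tdgf1.

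**Figure D3:**
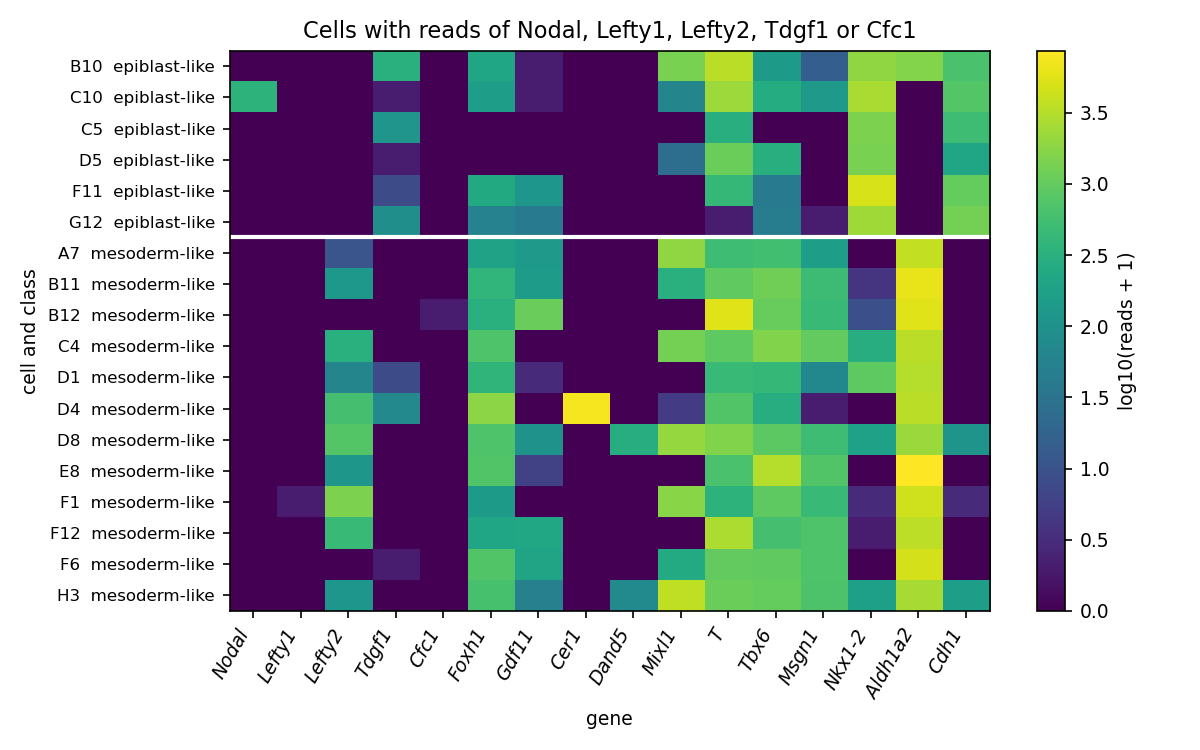
Reads, as log10(reads + 1), of 16 genes (columns) in the 18 cells that had a read of Nodal, Lefty1, Lefty2, Tdgf1 or Cfc1, with the epiblast-like cells above the white line and the mesoderm-like cells below it. Nodal is seen in C10 only, Cer1 in D4 only, and Nkx1-2 and Aldh1a2 are both high in B10.

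Foxh1 (chromosome 15, 76668225 to 76669948, minus strand) was the most widely read of the 9 genes, in 32 of 43 epiblast-like cells (74.4%, CI 58.8 to 86.5%) and 45 of 48 mesoderm-like cells (93.8%, CI 82.8 to 98.7%). In epiblast-like cells its level ran from 0 to 239.9 CPM with a median of 36.5, and in mesoderm-like cells from 0 to 631 CPM with a median of 94.3. The classes overlap, with 6 of 43 epiblast-like cells above the mesoderm-like median and 39 of 48 mesoderm-like cells above the epiblast-like median. The epiblast-like mean, 46.1 ± 51.2 CPM (SD, n = 43), was 2.82-fold lower than the mesoderm-like mean, 132 ± 123 CPM (SD, n = 48), a log2 ratio of -1.50. No single cell carried this, as the highest cell held 12.1% of the epiblast-like and 9.96% of the mesoderm-like sum, and the log2 ratio was -1.53 without them. Detection was all or none. The fewest reads in a positive cell were 32 in epiblast-like and 20 in mesoderm-like cells, so that the numbers of positive cells, 32 epiblast-like and 45 mesoderm-like, were the same at 5 or more reads and with every cell thinned to 500000 counts.

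A neighbor of Foxh1 qualifies this. Kifc2, a kinesin gene on the plus strand (chromosome 15, 76659858 to 76668196), runs toward Foxh1 and ends 28 bases from its annotated end, and the libraries do not mark strand. All 77 cells with Foxh1 reads had Kifc2 reads, 4 cells had 5 to 73 reads of Kifc2 alone, and 10 had neither. Over 91 cells the log2(CPM + 1) values of both genes had a Pearson r of 0.91, which was 0.90 with the class means taken out, and the ratio of Foxh1 to Kifc2 reads ran from 0.351 to 4.54 with a median of 2.04. Among 212 pairs of genes that run toward each other within 1000 bases, r had a median of 0.05, was at least 0.5 in 3 pairs, and was highest for this pair. Kifc2 followed the same class difference, with an epiblast-like mean of 20.3 ± 17.6 CPM and a mesoderm-like mean of 61.6 ± 39.1 CPM, a log2 ratio of -1.56. Reads of transcripts that run past the end of either gene would be counted for the other, and how much of the Foxh1 or Kifc2 values they make up was not tested.

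**Figure D4:**
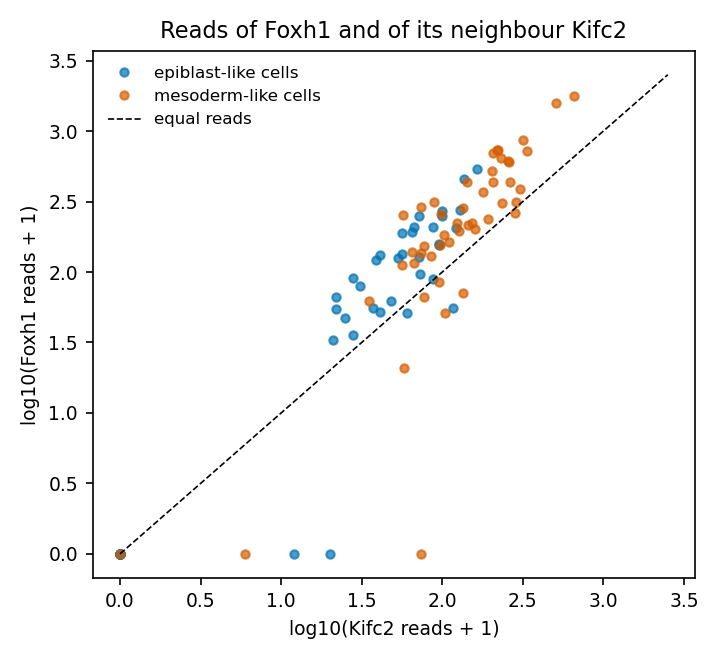
Reads of Foxh1 (vertical) against reads of its neighbor Kifc2 (horizontal), both as log10(reads + 1), with 1 point for each of 43 epiblast-like (blue) and 48 mesoderm-like cells (orange); the dashed line marks equal reads. The 77 cells with both genes follow the line, 69 of them above it, and 4 cells have Kifc2 reads only.

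Reads of more than 1 member in the same cell were counted over 36 pairs of genes. In 13 pairs at least 1 cell had reads of both, and in 6 pairs more than 1 cell did. Foxh1 and Gdf11 were read together in 26 of 43 epiblast-like and 24 of 48 mesoderm-like cells. In epiblast-like cells Foxh1 was read in 26 of 31 cells with Gdf11 reads (83.9%) and 6 of 12 without (50%), and in mesoderm-like cells in 24 of 24 (100%) and 21 of 24 (87.5%). The correlation of both genes within a class was weak (r = 0.31 over 43 epiblast-like and 0.14 over 48 mesoderm-like cells), and is no finding in counts as sparse as these. Lefty2 was read with Foxh1 in all 10 of its cells, where 35 of the 38 other mesoderm-like cells (92.1%) also had Foxh1 reads, and with Gdf11 in 7. No cell had reads of Nodal and a Lefty gene, but with Nodal read in 1 cell only this does not show that they exclude each other. The only cell with Nodal and a co-receptor was C10, through a single Tdgf1 read. A cell most often held reads of 2 members (22 epiblast-like cells) or of 1 (18 mesoderm-like cells), 3 members were read together in 3 epiblast-like and 10 mesoderm-like cells, and 4 epiblast-like and 3 mesoderm-like cells had none of the 9.

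To compare levels between genes, CPM was divided by the length of the exons in kilobases (RPKM). In epiblast-like cells the order was Foxh1 (33.8 ± 37.5 RPKM, SD, n = 43), Gdf11 (8.44 ± 10.2), Tdgf1 (1.73 ± 7.34) and Nodal (1.26 ± 8.27). In mesoderm-like cells it was Foxh1 (96.8 ± 89.96 RPKM, SD, n = 48), Lefty2 (10.1 ± 30.2), Gdf11 (8.12 ± 12.8) and Tdgf1 (0.157 ± 0.876). Foxh1 had the highest mean in both classes, with any reads that run over from Kifc2 counted in. Every SD was near or above its mean, so the order describes means only and was not tested. The Nodal mean comes from cell C10 alone. In mesoderm-like cells Lefty2 and Gdf11 changed places when CPM or the share of positive cells was used in place of RPKM.

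The rest of the pathway was examined through 35 further genes in lists of receptors, Smads, ligands, convertases, inhibitors and targets. Of these, 24 had reads in at least 3 cells and 5 had no read. By the 2-fold rule 1 of the 24 was higher in the epiblast-like and 7 in the mesoderm-like class. Over all 18054 genes these shares were 8.18% and 9.55%. The median log2 ratio was -0.61 over the 24, against 0.01 over all 18054 genes. The receiving side was widely read. The type II receptor gene Acvr2b was read in all 91 cells, with an epiblast-like mean of 118 ± 50.8 CPM and a mesoderm-like mean of 200.4 ± 123 CPM. Tgfbr1, a type I receptor gene, was read in 28 epiblast-like cells (63.4 ± 88.99 CPM over the class) and 33 mesoderm-like cells (92.8 ± 131 CPM). Both receptors were below the 2-fold rule, as was Acvr1b, the type I receptor gene of Nodal and activin (epiblast-like 16.2 ± 28.7 CPM, mesoderm-like 9.09 ± 21.5 CPM). Acvr2a was higher in the mesoderm-like class (epiblast-like 17.6 ± 51.3 CPM, mesoderm-like 45.6 ± 81.05 CPM), and Acvr1c was not read. The signal transducer genes Smad2, Smad3 and Smad4 were all below the 2-fold rule, Smad4 with a mean of 116 ± 113 CPM in the epiblast-like class, against 186 ± 154 CPM in the mesoderm-like class.

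All steps from receptor to nucleus could be read in many cells at once. These steps were a type I receptor gene (Acvr1b or Tgfbr1), a type II receptor gene (Acvr2a or Acvr2b), Smad2 or Smad3, Smad4 and Foxh1. They were read together in 17 of 43 epiblast-like cells (39.5%, CI 24.98 to 55.6%) and 27 of 48 mesoderm-like cells (56.2%, CI 41.2 to 70.5%). Each step alone was read in at least 74.4% of epiblast-like and at least 75% of mesoderm-like cells. Whether the steps met more often than these single shares give was not tested, and the Foxh1 step may include reads from Kifc2. With Tdgf1 added, 2 cells remained in each class. Acvr1b was read in only 15 epiblast-like and 12 mesoderm-like cells. Some of the 17 and 27 cells thus had Tgfbr1 as their only type I receptor gene of the 2 counted. Gdf11 was read beside Tgfbr1 in 21 epiblast-like cells (48.8%, CI 33.3 to 64.5%) and 16 mesoderm-like cells (33.3%, CI 20.4 to 48.4%). Tgfbr1 was thus read in 21 of 31 epiblast-like cells with Gdf11 and 7 of 12 without, and in 16 of 24 mesoderm-like cells with Gdf11 and 17 of 24 without.

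Among the listed genes of convertases, enzymes that cleave precursor proteins, Furin was read in 21 epiblast-like cells (6.74 ± 10.3 CPM over the class) and 42 mesoderm-like cells (25.2 ± 27.2 CPM), a log2 ratio of -1.76. Pcsk5 was read in 4 mesoderm-like cells only (8.97 ± 41.5 CPM, against 0 in epiblast-like cells), with 62.8% of the sum in D4, and Pcsk6 in 1 cell. Of the convertase genes that could be called, Furin was read in both classes and was higher on the mesoderm-like side. Pcsk5 reached the needed 3 cells through mesoderm-like cells alone, so its call, on few cells, could only fall on that side. Over all genes that could be called, 9.55% were higher on that side. Of the inhibitor genes, 8 could be called and none of them differed 2-fold. Fst, which encodes the activin and Gdf11 antagonist follistatin, was read in all 91 cells, with an epiblast-like mean of 449 ± 279.9 CPM and a mesoderm-like mean of 418 ± 235 CPM. Tgif1, a Smad corepressor gene, was also read in every cell (epiblast-like 288 ± 166 CPM, mesoderm-like 239.6 ± 147 CPM). Of the secreted Nodal antagonists, Dand5 was read in 3 epiblast-like and 4 mesoderm-like cells, and Cer1 in D4 alone, with 7596 reads.

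D4 stands apart among the mesoderm-like cells. It had the highest total of all 91 cells (4439571 counts), every Cer1 read, 602 reads of Lefty2, the most Tdgf1 reads of its class (69) and the most Foxh1 reads of any cell (1763). Scaled to its total, D4 was still the highest of its class for Tdgf1 (15.5 CPM). For Foxh1 it lay at 397 CPM, below D3 at 631 CPM. It had 3339 reads of Aldh1a2, 1945 of Pdgfra and 277 of Tbx6, none of Nkx1-2, Cdh1 or Sox17, and 1 of Msgn1. Without D4 the log2 ratio was -1.43 for Foxh1 and 2.35 for Tdgf1, both on the same side of the 2-fold rule. Whether this well held more than 1 cell was not tested.

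Of 10 genes known as targets of Nodal signaling in the gastrula, 1 was higher in the epiblast-like class and 4 were higher in the mesoderm-like class. Another 2 were below the 2-fold rule and 3 were read in too few cells to be called. Over all genes that could be called, 8.18% were higher in epiblast-like and 9.55% in mesoderm-like cells. The homeobox gene Mixl1 was read in 13 epiblast-like cells (21.4 ± 80.6 CPM over the class) and 39 mesoderm-like cells (317 ± 363 CPM), a log2 ratio of -3.83. Lhx1 was read in 4 epiblast-like cells (0.18 ± 0.69 CPM) and 25 mesoderm-like cells (44.9 ± 69.6 CPM), a log2 ratio of -5.28. Otx2 and Mesp1 were the other genes higher in the mesoderm-like class. They stayed at low levels there, Otx2 at 1.96 ± 6.69 CPM on 10 cells and Mesp1 at 1.68 ± 6.81 CPM on 5. The Mesp1 call rests on cell B4, which held 52.7% of its mesoderm-like sum: without the highest cell of each class its log2 ratio was -0.86, below the 2-fold rule. Eomes, a T-box gene of the early streak, was the gene higher in epiblast-like cells, with reads in 5 of them (2.56 ± 9.96 CPM) and in no mesoderm-like cell. Its call could thus only fall on the epiblast-like side. T (epiblast-like 228 ± 366 CPM, mesoderm-like 427 ± 317 CPM) and Fgf8 (epiblast-like 12.4 ± 19.9 CPM, mesoderm-like 16.5 ± 30.2 CPM) were less than 2-fold apart, though T passed the rule without the highest cell of each class (log2 ratio -1.05). Gsc was not read, and Foxa2 was read in 1 mesoderm-like cell. Within the classes the level of Foxh1 followed these targets weakly or not at all, with r between -0.18 and 0.26 for Mixl1, Lhx1 and T, which is no finding.

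**Figure D5:**
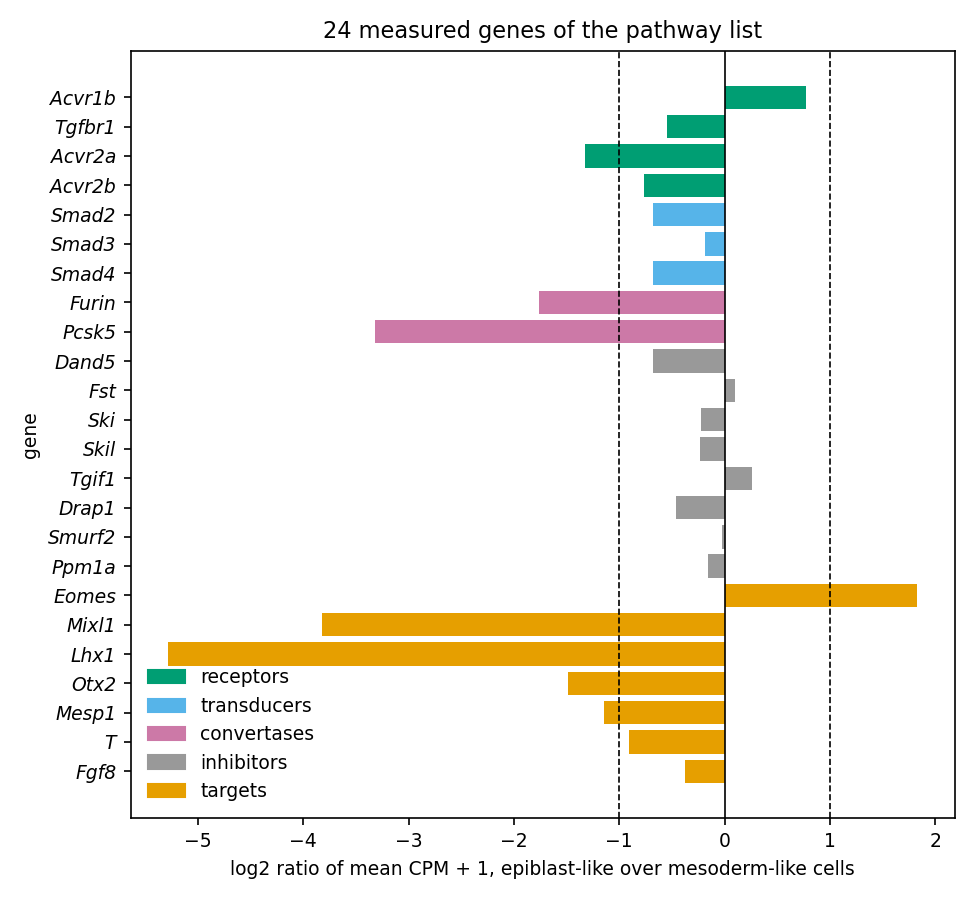
Log2 ratio of mean CPM + 1 in 43 epiblast-like over 48 mesoderm-like cells for the 24 measured genes of the pathway lists, colored by role; dashed lines mark a 2-fold difference and no error bars are drawn because the cells are 1 pool. The convertase genes Furin and Pcsk5 and the targets Mixl1, Lhx1, Otx2 and Mesp1 lie below the lower line with the receptor gene Acvr2a, and Eomes alone lies above the upper line.

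Genes whose values over the 91 cells were most like those of a member were looked for among 11322 genes with reads in at least 20 cells, for Foxh1 and Gdf11, the only members read that widely. After Kifc2, the genes most like Foxh1 were Timm50 (r = 0.52), which encodes a subunit of a mitochondrial import complex, and the laminin gene Lama1 (r = 0.48). Timm50 kept an r of 0.47 with the class means taken out, and Lama1 one of 0.31. For Gdf11 the highest values were 0.354 (Jkamp), 0.353 (Ccpg1os) and 0.352 (Gpatch4), so that no gene stood out. All points share the library and depth of their cell.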

How the data were processed

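Full-length cDNA of 91 single cells was sequenced by Smart-seq2 with single-end reads of 75 bases and no molecular identifiers, so that reads are not independent molecules. The authors aligned the reads to GRCm38 (mm10) with HISAT2 and made the deposited counts of reads per gene with featureCounts, without normalization. Not given in the sources used here are their versions, the annotation, and how strand and overlapping genes were treated. Symbols were matched for 53274 of 53379 identifiers, and no column was left without a cell.

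Counts were scaled to CPM and, between genes, divided by exon length (GENCODE M21, GRCm38), with pandas 2.3.3, numpy 2.4.6, scikit-learn 1.9.0 and scipy 1.17.1 under Python 3.11.15. A gene was called when read in at least 3 cells and at least 2-fold different in mean CPM + 1. All cells were kept, and doublets were not called in these cells sorted 1 to a well. Named are all 9 members, genes of the pathway lists that passed the rule or made up a count of 5 or fewer, and the 3 genes most alike. The genes named below 2-fold, and the cells named, were picked after their values were seen. The members and lists were chosen with earlier results of these data known. 1 gene of the lists is not reported by name here. Only the 2-fold call and the computing of correlations were tested on simulated data. The changed genes were drawn from those with a mean above 10 CPM, so genes at lower levels, such as Tdgf1, were not among them. Detection, reads of 2 genes together and the class rule were not simulated. Other scalings, pseudocounts, filters, class rules and depths were tried.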

Additional observations from a re-analysis of the deposited data

How the results depend on the processing

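The number of members called in either direction was within 1.5 times of 3 under all 14 alternatives. The 1 member higher in epiblast-like cells became 0 with a pseudocount of 10 CPM, with genes read in at least 10 cells, with classes from marker lists and with classes from k-means clusters, and 2 with no filter on detection, where Nodal was added. With median CPM it was again 1 but another gene, Gdf11 in place of Tdgf1, whose log2 ratio was 0. The Tdgf1 log2 ratio was reversed to -0.27 with classes from marker lists (40 epiblast-like cells, 3 cells moved) and to -0.35 with k-means classes (42 cells, 1 moved), since cell B10 then lay on the mesoderm-like side. The 2 members higher in mesoderm-like cells became 1 with median CPM, where Lefty2 is at 0 in both classes. The 1 pathway gene higher in epiblast-like cells became 0 with a pseudocount of 10 CPM and with genes read in at least 10 cells, and 2 with no filter, and the 7 higher in mesoderm-like cells became 4 with a pseudocount of 10 CPM. Without the highest cell of each class they were again 7, but with T in place of Mesp1. With median CPM the counts were also 1 and 7, but of partly other genes. Smurf2, of the inhibitor list, took the place of Eomes (medians 14.1 CPM epiblast-like and 0.409 CPM mesoderm-like). T, Tgfbr1, Smad2 and Smad3 took the places of Acvr2a, Pcsk5, Otx2 and Mesp1, while Furin, Mixl1 and Lhx1 stayed. The Foxh1 log2 ratio stayed between -1.53 and -1.34 in all 14. Gdf11 stayed within 2-fold except for medians (log2 ratio 4.18), and was -0.03 with size factors. Leaving out cells B10 and D4 was chosen after seeing the data. Of 70 recounts of cells with a read 62 stayed within the main interval, as did all 30 of the pairs tried. The rest were the single cells of Lefty1 and Cfc1, lost at higher thresholds or by thinning, the Nodal cell C10, which passed to the mesoderm-like side with classes from marker lists, and Gdf11, with 24 epiblast-like cells at 10 CPM or more. At a median of 2507671 counts per cell, 1 read is near the limit of what can be seen, and a 0 bounds only the share of cells with a read. No paired analysis was possible because the cells are 1 pool and no replicate numbers are shared between groups.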
